A study of Mus musculus with 12 samples.

Results

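Livers of leptin-deficient ob/ob mice were examined for 8 genes of the aryl hydrocarbon receptor (Ahr) battery, chosen by name out of the 56205 genes in the count table. They were the Cyp1 family genes Cyp1a1, Cyp1a2 and Cyp1b1, the receptor gene Ahr, its partner Arnt, the repressor Ahrr, the feedback gene Tiparp and the aldehyde dehydrogenase gene Aldh3a1. Poly(A)-selected RNA of whole liver had been sequenced, 1 library per mouse, from 6 mice on chow alone (the FLO group) and 6 given ethionine besides chow (the fibrotic group). Ethionine is a form of the amino acid methionine that carries an ethyl in place of the methyl group. All mice were described as male, were ob/ob (B6.Cg-Lep ob/J) in both groups and were 8 to 10 weeks old when treatment began. Of the labels, one has 0.165% DL ethionine given for 2 weeks in drinking water and another an injection of 0.15%. The study's methods state 0.15% in drinking water and a shorter treatment, so dose, route and duration are not settled. No lean mice were included, and no liver score accompanies the libraries, so "fibrotic" is used as a group name.

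The Ahr protein is a ligand-activated transcription factor. Without a ligand it sits in the cytosol with the chaperone Hsp90 and its helper p23, and with one it enters the nucleus, pairs with Arnt and binds DNA that holds the letters GCGTG. Its best known targets are the Cyp1 enzymes, which oxidise planar aromatic compounds, and Tiparp and Ahrr, which dampen the receptor. In liver, Cyp1a2 is made without an inducer, mainly by hepatocytes near the central vein, whereas Cyp1a1 is low until a ligand arrives.

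Members of the battery moved in opposite directions. Cyp1a1, Ahr and Tiparp rose in fibrotic livers and Cyp1a2 fell, while Cyp1b1 and Arnt did not pass the test. Of the 8 genes, 6 passed the low-count filter, and of these 3 were called higher and 1 lower, where a call needed an adjusted p no higher than 0.01 and a log2 fold change beyond 0.5 in size. Calls were frequent in these livers, with 29.9% of all 13416 genes tested called, 15.9% as higher and 14.0% as lower. The 6 libraries of one group lay apart from the 6 of the other for Cyp1a1, Cyp1a2 and Ahr, 3 of the 6 tested members, and for 30.4% of all genes tested. Ahrr and Aldh3a1 lay close to the limit of detection and were compared by an exact permutation test only.

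Total counts ran from 17815568 to 24814263 per library. Xist, the RNA that coats the silenced X chromosome, had 3773 counts in FLO replicate 3 and 0 to 4 in the other libraries, and the Y-linked Ddx3y had 4 counts there and 556 or more elsewhere, which goes against its description as male. Without that library the same 4 members of the battery were called. The summed level of 6 hepatocyte markers ran from 49731 to 79334 CPM (counts scaled to a common normalized library size) in fibrotic and from 70408 to 83631 CPM in FLO livers, with 1 called higher and 2 lower. Most of this sum was Alb, with a mean of 52922 of 63702 CPM in fibrotic and 65410 of 78801 CPM in FLO livers. The sum of 6 macrophage markers ran from 213 to 436 CPM against 170.4 to 205 CPM without overlap, with 4 called higher. The sum of 5 endothelial markers ran from 99.99 to 136 CPM against 140.4 to 163 CPM, also without overlap, with 1 called lower (0 when libraries were scaled by their totals alone). Cholangiocyte markers (80.6 to 273 CPM against 47.0 to 87.9 CPM, 3 of 5 called higher), stellate cell markers (224 to 359 CPM against 198 to 303 CPM, 1 of 7 called higher) and lymphocyte markers (0.936 to 2.94 CPM against 1.15 to 2.49 CPM, 1 of 4 tested and 0 called) overlapped between groups. Most of the cholangiocyte sum was Spp1, with a mean of 122 of 144 CPM in fibrotic and 60.5 of 69.6 CPM in FLO livers. The calls among cholangiocyte and stellate cell markers were not stable. Leaving out 1 library gave 1 to 4 called cholangiocyte markers, 1 of them without fibrotic replicate 4 or without FLO replicate 1, 2, 4 or 5. The stellate call was lost without fibrotic replicate 1, 4 or 5 or FLO replicate 1, 2, 3, 5 or 6, and under RLE or upper quartile scaling, voom or no low-count filter. No marker was at 0 in all libraries. The calls among markers stand beside 29.9% called over all genes tested. In whole liver, fewer cells of a type and less RNA per cell cannot be told apart, and the part of these shifts in the levels below was not tested.

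**Figure D1:**
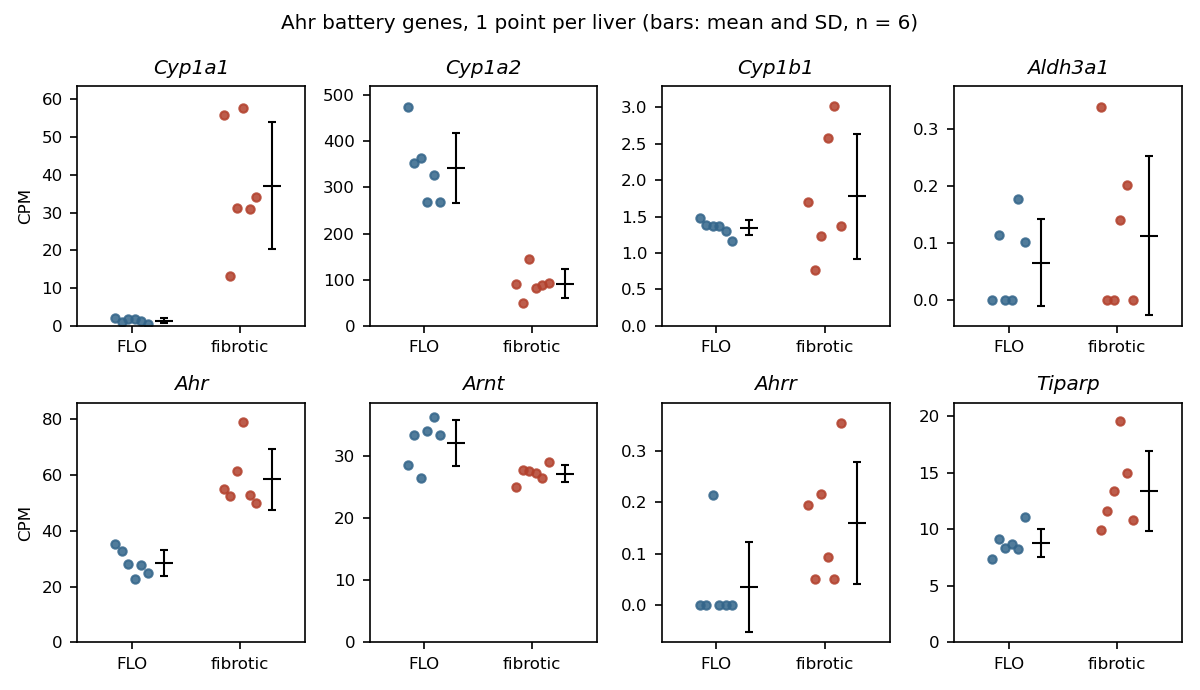
Level of each of the 8 genes in CPM (vertical axes) in the 6 FLO and 6 fibrotic livers, 1 point per liver, with the mean and SD of each group. FLO and fibrotic points are apart for Cyp1a1, Cyp1a2 and Ahr and overlap for the other 5 genes.

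Cyp1a1 and Cyp1a2 are neighbours on mouse chromosome 9. In GRCm38 their RefSeq start sites lie 13958 bases apart and point away from each other, Cyp1a1 on the plus strand from 57697613 and Cyp1a2 on the minus strand from 57683655. RefSeq promoter windows (GRCm38.p6) were at hand for 6 of the 8 genes. The 250 bases before the start are printed for Cyp1a1 and Cyp1a2, which moved in opposite directions, and for the feedback genes Ahrr and Tiparp, 5′ to 3′ on the strand of the gene, with GCGTG, or CACGC where the match is on the other strand, in capitals.
Cyp1a1, chr9:57697363-57697612, plus strand: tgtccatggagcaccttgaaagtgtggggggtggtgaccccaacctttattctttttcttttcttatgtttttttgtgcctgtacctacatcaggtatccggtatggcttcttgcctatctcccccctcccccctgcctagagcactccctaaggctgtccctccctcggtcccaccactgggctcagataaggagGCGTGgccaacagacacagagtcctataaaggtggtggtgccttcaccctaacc
Cyp1a2, chr9:57683656-57683905, minus strand: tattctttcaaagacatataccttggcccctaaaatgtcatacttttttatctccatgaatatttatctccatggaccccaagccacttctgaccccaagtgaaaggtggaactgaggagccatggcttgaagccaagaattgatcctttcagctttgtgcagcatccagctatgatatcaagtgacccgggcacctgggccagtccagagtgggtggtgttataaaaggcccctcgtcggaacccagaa
Ahrr, chr13:74292332-74292581, minus strand: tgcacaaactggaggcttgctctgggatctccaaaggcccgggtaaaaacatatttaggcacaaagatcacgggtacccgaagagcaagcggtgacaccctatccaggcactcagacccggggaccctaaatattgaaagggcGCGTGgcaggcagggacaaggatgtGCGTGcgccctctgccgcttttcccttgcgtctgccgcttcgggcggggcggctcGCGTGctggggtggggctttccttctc
Tiparp, chr3:65528197-65528446, plus strand: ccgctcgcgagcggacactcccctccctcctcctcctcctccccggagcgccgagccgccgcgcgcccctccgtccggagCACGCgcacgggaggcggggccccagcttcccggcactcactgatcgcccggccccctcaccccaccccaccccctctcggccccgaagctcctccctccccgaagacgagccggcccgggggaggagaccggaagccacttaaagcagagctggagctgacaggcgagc
Cyp1a1 held 1 match, 54 bases before the start, and Cyp1a2 held 0. Ahrr held 3 matches, at 107, 82 and 27 bases before the start, and Tiparp held 1 at 170 bases. Cyp1b1 and Arnt, not printed, held 1 each, at 76 and 29 bases. Of all 32851 windows of this length, 28.2% held at least 1 match on either strand and 2.77% held 3 or more. A match is a description of the letters in the window, and elements farther away were not searched.

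Cyp1a1 (ENSMUSG00000032315) encodes the P450 enzyme most often used as a readout of Ahr activity. Its level in FLO livers was 0.609 CPM at the lowest, 1.54 at the median and 2.02 at the highest, from 12 to 43 counts per library. In fibrotic livers the lowest was 13.3 CPM, the median 32.7 and the highest 57.7, from 261 to 1232 counts. All 6 fibrotic livers lay above every FLO liver, with replicate 2 lowest and replicate 4 highest among them. The means were 37.2 ± 16.9 CPM (SD, n = 6) and 1.43 ± 0.536 CPM (SD, n = 6), a 25.7-fold rise (log2 fold change 4.69, SE 0.38, 95% interval 3.86 to 5.51, adjusted p = 5.86e-07).

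Cyp1a2 (ENSMUSG00000032310) encodes the P450 enzyme that oxidises caffeine and many aromatic amines. FLO livers held 268 CPM at the lowest, 340.3 at the median and 474 at the highest. Fibrotic livers held 50.1, 89.3 and 146 CPM in the same order, so the groups did not overlap, in the opposite direction to Cyp1a1. Fibrotic livers averaged 91.6 ± 30.8 CPM (SD, n = 6) and FLO livers 342 ± 76.0 CPM (SD, n = 6), 3.74-fold lower (log2 fold change -1.90, SE 0.21, 95% interval -2.35 to -1.45, adjusted p = 4.76e-06). Replicate 2 was the lowest fibrotic liver for both genes, while the highest was replicate 4 for Cyp1a1 and replicate 3 for Cyp1a2.

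The balance of both genes within a library does not depend on how libraries are scaled. That the groups did not overlap in it follows from the separation of each gene given above. For every 100 counts of Cyp1a2 there were 0.227 to 0.639 counts of Cyp1a1 in FLO livers and 21.5 to 69.9 in fibrotic livers. Per length of transcript, Cyp1a1 made up 0.300 ± 0.106% (SD, n = 6) of the summed level of both genes in FLO livers and 22.4 ± 8.03% (SD, n = 6) in fibrotic livers. Cyp1a2 thus remained the larger of the pair in every liver. The summed level went from 177 ± 39.3 CPM per kb (SD, n = 6) to 61.0 ± 18.1 CPM per kb (SD, n = 6), the loss of Cyp1a2 being larger than the gain of Cyp1a1. The transcripts are alike in places, as 3.48% of the 51-base windows of Cyp1a1 also occur in Cyp1a2, and 4.87% of those of Cyp1a2 in Cyp1a1. Reads from these could have been counted for either gene. FLO libraries held 12 to 43 counts of Cyp1a1 beside 5291 to 8661 of Cyp1a2. The part of such reads in the low FLO level of Cyp1a1 was not tested.

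**Figure D2:**
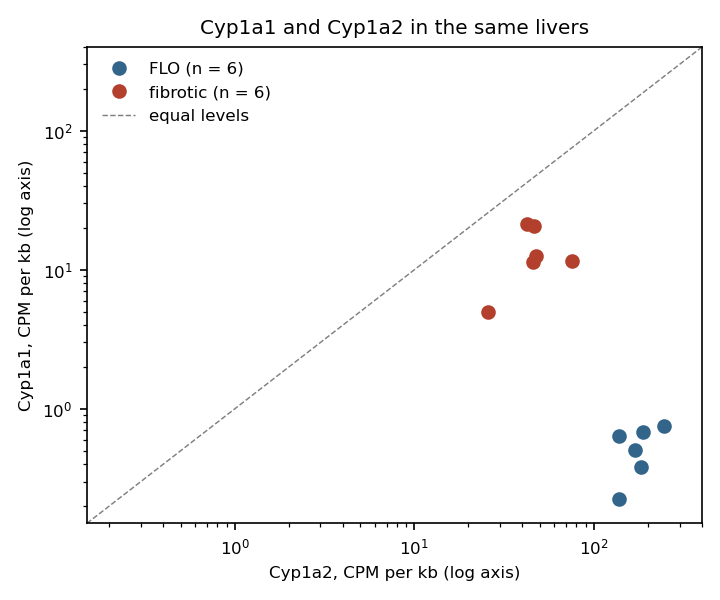
Cyp1a1 (vertical axis) against Cyp1a2 (horizontal axis) in each of the 12 livers, both per length of transcript and on log axes. Fibrotic livers lie above and to the left of FLO livers, with Cyp1a1 at 13.4 to 33.5% of the summed level of both genes against 0.163 to 0.457%.

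Cyp1b1 (ENSMUSG00000024087) encodes a P450 enzyme found mostly outside hepatocytes. FLO livers held 1.17, 1.37 and 1.48 CPM (lowest, median, highest) and fibrotic livers 0.764, 1.53 and 3.02 CPM, from 15 to 60 counts. Of the fibrotic livers 3 lay above every FLO liver and 1 below, and their coefficient of variation was 48.2% against 7.64%. The log2 fold change of 0.40 (SE 0.28, 95% interval -0.20 to 1.01, adjusted p = 0.250) did not pass the test.

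Ahr (ENSMUSG00000019256), the gene of the receptor itself, held 22.8, 28.0 and 35.4 CPM (lowest, median, highest) in FLO livers. Fibrotic livers held 49.9, 54.0 and 79.2 CPM, and each lay above every FLO liver. Fibrotic livers averaged 58.5 ± 10.9 CPM (SD, n = 6) and FLO livers 28.7 ± 4.69 CPM (SD, n = 6), a 2.04-fold rise (log2 fold change 1.03, SE 0.13, 95% interval 0.76 to 1.30, adjusted p = 9.15e-06). A noncoding gene on the other strand, Gm48236, overlaps Ahr but held at most 3 counts per library.

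Arnt (ENSMUSG00000015522) encodes the protein with which Ahr binds DNA, and which is shared with the hypoxia factors. Its level was 26.4, 33.4 and 36.2 CPM (lowest, median, highest) in FLO livers and 25.02, 27.4 and 29.1 CPM in fibrotic livers. All 6 fibrotic livers lay below the FLO median, and 2 lay below every FLO liver. The log2 fold change was -0.24 (SE 0.08, 95% interval -0.41 to -0.06) with an adjusted p of 0.0256, which missed the threshold of 0.01, and became -0.06 (adjusted p = 0.631) when libraries were scaled by their totals alone. Without FLO replicate 3 it was -0.29 with an adjusted p of 0.00641, still under the fold limit.

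Tiparp (ENSMUSG00000034640) encodes an ADP-ribosyltransferase that limits Ahr activity. It was measured at 7.38, 8.53 and 11.1 CPM (lowest, median, highest) in FLO livers and at 9.99, 12.5 and 19.6 CPM in fibrotic livers. The ranges overlapped, with 4 of 6 fibrotic livers above every FLO liver and all 6 above the FLO median. The mean was 13.4 ± 3.53 CPM (SD, n = 6) against 8.82 ± 1.24 CPM (SD, n = 6), a 1.52-fold rise (log2 fold change 0.61, SE 0.16, 95% interval 0.27 to 0.94, adjusted p = 0.00435). This call was lost without fibrotic replicate 4 (log2 fold change 0.47), without fibrotic replicate 5 (adjusted p = 0.0101), without FLO replicate 1 (adjusted p = 0.0117) and without FLO replicate 5 (adjusted p = 0.0104). Fibrotic replicate 4 was also the highest library for Cyp1a1 and Ahr. It stood out beyond the battery too, highest of all libraries for Nfe2l2 (308 CPM) and Csf1r (124 CPM) and lowest for Alb (40385 CPM). Its total count (17815568) was the lowest.

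Ahrr (ENSMUSG00000021575) encodes a relative of Ahr that competes with it for Arnt. It had 19 counts over the 6 fibrotic libraries, 1 to 7 in each, and 5 counts over the 6 FLO libraries, all of them in FLO replicate 3. The mean log2 CPM was 0.97 higher in fibrotic livers (exact permutation test, two-sided p = 0.0433, with shifts of 0.16 to 1.85 not rejected). Its size depends on the prior count added to such low counts, being 2.07 with a prior count of 0.5 and 0.51 with one of 5. Without FLO replicate 3 the difference was 1.23 (exact p = 0.00649), and with any of the other 5 FLO libraries left out the exact p rose above 0.05, as it did without fibrotic replicate 1, 3 or 6, reaching 0.0779 at most. When the low-count filter was removed, the log2 fold change from edgeR was 1.83 (adjusted p = 0.166). Aldh3a1 (ENSMUSG00000019102), an enzyme gene induced through Ahr in several tissues, had 14 counts in fibrotic and 7 in FLO libraries, with 3 libraries at 0 in each group. The difference in mean log2 CPM was 0.23 (exact p = 0.589, shifts of -0.81 to 1.30 not rejected), so neither a rise nor a fall could be detected at this depth.

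**Figure D3:**
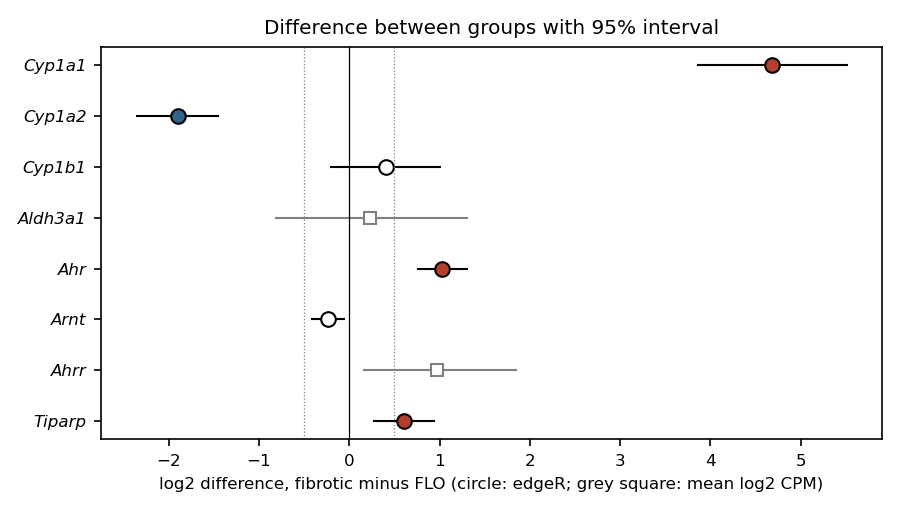
Difference between fibrotic and FLO livers for each of the 8 genes on a log2 scale, with 95% intervals. Cyp1a1 stands at 4.69, Ahr at 1.03, Tiparp at 0.61 and Cyp1a2 at -1.90, while the intervals of Cyp1b1 and Aldh3a1 span 0.

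Set in order by level per length, the battery in FLO livers ran Cyp1a2 (176 CPM per kb), Arnt (7.40), Ahr (5.17), Tiparp (2.11), Cyp1a1 (0.530), Cyp1b1 (0.262), Aldh3a1 (0.0380) and Ahrr (0.00699). Neighbours whose FLO ranges overlapped were Arnt and Ahr, Cyp1a1 and Cyp1b1, and Aldh3a1 and Ahrr. In fibrotic livers the mean of Cyp1a1 (13.8 CPM per kb) stood next to Cyp1a2 (47.2), ahead of Ahr (10.5), Arnt (6.28) and Tiparp (3.20). The range of Cyp1a1 (4.93 to 21.4) overlapped those of Ahr (8.99 to 14.3) and Arnt (5.79 to 6.72). When all exons of a gene were used as its length, Ahr (4.65) stood above Arnt (3.997) in FLO livers, so the order of this pair depends on the transcript chosen. The median log2 fold change of the 6 tested members was 0.50, beside 0.025 over all 13416 genes. With members spread from -1.90 (Cyp1a2) to 4.69 (Cyp1a1), this median does not describe a common shift.

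Genes for proteins that hold or assist the receptor were called about as often as all genes. Of 11 genes for the cytosolic complex, Arnt partners and coactivators, 10 were tested, of which 1 was called higher and 2 lower (median log2 fold change 0.07), beside 29.9% over all genes tested. The coactivator gene Ncoa1 rose by 0.96 on the log2 scale (SE 0.12, adjusted p = 1.03e-05). Hsp90ab1, a chaperone of unliganded Ahr, fell (log2 fold change -0.53, SE 0.10, adjusted p = 0.000290), as did the hypoxia factor Epas1 (log2 fold change -0.72, SE 0.11, adjusted p = 5.78e-05). Hsp90ab1 came under the fold limit with scaling by library totals (-0.36) and without fibrotic replicate 4 (-0.47) or FLO replicate 1 (-0.49). The other Hsp90 gene, Hsp90aa1, was at 0.18 (adjusted p = 0.176) and Ptges3, which encodes p23, at -0.37, under the fold limit.

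Other genes described as Ahr targets in liver were likewise called at about the share of all genes. Of 15, 14 were tested, 1 was called higher and 3 lower, beside 29.9% over all genes tested, and the median log2 fold change was 0.10. At an FDR of 0.05 without a fold limit 8 of the 14 were called, beside 6994 of all 13416 genes tested. Nfe2l2, which encodes the oxidative stress factor Nrf2, rose (log2 fold change 1.28, SE 0.18, adjusted p = 3.07e-05). The quinone reductase gene Nqo1 fell from 31.4 ± 8.55 CPM to 19.9 ± 3.48 CPM (SD, n = 6 each), a log2 fold change of -0.66 (adjusted p = 0.00505). The call of Nqo1 was lost with scaling by library totals (-0.49, adjusted p = 0.0140), with no low-count filter (adjusted p = 0.0117) and without fibrotic replicate 4, 5 or 6 or FLO replicate 1 or 2 (adjusted p up to 0.0149). The glucuronosyltransferase genes Ugt1a6a (log2 fold change -1.10, adjusted p = 7.33e-08) and Ugt1a6b (-2.66, adjusted p = 2.39e-06) also fell. Both share near-identical sequence, so the division of reads between them is uncertain. Of the most abundant uncalled genes, the fatty acid transporter gene Cd36 was at 0.43 (adjusted p = 0.000432) and the xanthine oxidase gene Xdh at -0.39 (adjusted p = 0.00157), both under the fold limit, and Gsta1 was at -0.17 (adjusted p = 0.637). With scaling by library totals Cd36 was called (0.61).

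Genes for enzymes of tryptophan breakdown, a source of compounds that bind Ahr, mostly fell. The list does not separate steps that make such compounds from steps that use them up. The list holds genes of the kynurenine route and, outside that route, Il4i1. Of 11 genes 10 were tested, with 1 called higher and 7 lower (median log2 fold change -0.77), beside 29.9% over all genes tested. The genes at the entry of the route in hepatocytes and at its branch, Tdo2 (log2 fold change 0.32, adjusted p = 0.0788) and Kmo (-0.07, adjusted p = 0.597), did not pass the test. Lower were Afmid (-2.29, adjusted p = 0.000168), Haao (-1.95, adjusted p = 3.00e-07), Kyat3 (-1.93, adjusted p = 0.000876), Aadat (-1.10, adjusted p = 5.02e-06), Kynu (-0.83, adjusted p = 0.000268), Kyat1 (-0.72, adjusted p = 0.00905) and Ido2 (-0.60, adjusted p = 0.00254). Il4i1, an amino acid oxidase gene of immune cells, was the one called higher (log2 fold change 1.18, SE 0.34, adjusted p = 0.00935), at 1.90 ± 0.626 CPM against 0.829 ± 0.468 CPM (SD, n = 6 each). The call of Il4i1 was lost with RLE scaling (adjusted p = 0.0103), with upper quartile scaling (adjusted p = 0.0122) and without fibrotic replicate 1, 2, 3 or 5 or FLO replicate 1, 2, 3 or 6 (adjusted p up to 0.0268). That of Kyat1 was lost with scaling by library totals (adjusted p = 0.0178), with no low-count filter (adjusted p = 0.0295) and without fibrotic replicate 3, 4, 5 or 6 or FLO replicate 1, 3 or 5 (adjusted p up to 0.0223). Ido2 came under the fold limit with scaling by library totals (-0.44) and without fibrotic replicate 4 (-0.50).

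Genes for electron supply to P450 enzymes and for haem synthesis and breakdown were compared to set the Cyp1 genes in context. Of 11 for electron supply and haem, 1 was called higher and 4 lower (median log2 fold change -0.17), beside 29.9% over all genes tested. Por, the P450 reductase gene, stood at 754 ± 134 CPM in fibrotic and 757 ± 131 CPM in FLO livers (SD, n = 6 each). Its log2 fold change was -0.01 (SE 0.14), and Alas1, the first step of haem synthesis, was at -0.17 (SE 0.21, adjusted p = 0.524). The cytochrome b5 gene Cyb5a (-0.69, adjusted p = 0.000152) and the cytochrome b5 reductase gene Cyb5r3 (-1.03, adjusted p = 3.06e-07) fell. So did the haem synthesis genes Alad (-0.55, adjusted p = 0.00421) and Uros (-0.64, adjusted p = 0.000189). Hmox1, which degrades haem, rose (log2 fold change 0.72, SE 0.17, adjusted p = 0.00292). Scaled by library totals, 3 of these 5 genes were called, Alad (-0.39) and Uros (-0.48) coming under the fold limit, as Alad did without fibrotic replicate 4 (-0.42).

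Cyp1a2 was next compared with genes of the other xenobiotic receptors and of liver zonation. Of 8 genes of the CAR and PXR systems, 4 were called lower and 0 higher, with 4 not called (median log2 fold change -0.81). The share called over all genes tested was 29.9%. Nr1i3, which encodes CAR, fell from 329 ± 72.9 CPM to 28.5 ± 16.3 CPM (SD, n = 6 each) without overlap (log2 fold change -3.53, SE 0.37, adjusted p = 6.47e-06). Cyp2b13 (-3.55, adjusted p = 0.00139), Cyp2b9 (-1.25, adjusted p = 0.000433) and the carboxylesterase gene Ces2a (-2.09, adjusted p = 9.49e-05) fell as well, whereas Cyp2b10 was at -0.11 (adjusted p = 0.737) and Cyp3a11 at 0.15 (adjusted p = 0.555). Reads of the Cyp2b genes may be divided between close copies.

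Of 10 genes typical of pericentral hepatocytes, 4 were called lower and 0 higher (median log2 fold change -0.61), beside 29.9% over all genes tested. Lower were Slc1a2 (-1.68, adjusted p = 0.000115), Cyp2c29 (-1.06, adjusted p = 0.00603), Oat (-0.98, adjusted p = 0.000146) and the Wnt pathway gene Rnf43 (-0.71, adjusted p = 0.000350). Glul, the glutamine synthetase of the innermost pericentral cells, was at 0.03 (SE 0.13, adjusted p = 0.854), and Cyp2e1 at -0.62 (SE 0.19, adjusted p = 0.0117). Cyp2e1 was called by DESeq2 (adjusted p = 0.00231), by voom (adjusted p = 0.00729), with upper quartile scaling (adjusted p = 0.00822) and without fibrotic replicate 3 (adjusted p = 0.000484). Cyp2c29 lost its call with no low-count filter (adjusted p = 0.0279) and without fibrotic replicate 1, 4, 5 or 6 or FLO replicate 1, 2, 3 or 5 (adjusted p up to 0.0153). The pericentral genes called numbered 7 by DESeq2 and 3 to 6 without 1 library. Of 8 genes typical of periportal hepatocytes, 4 were called lower and 1 higher (median log2 fold change -0.63), beside 29.9% over all genes tested. No test compared the zones. Lower were Pck1 (-1.08, adjusted p = 0.000270), Ass1 (-0.67, adjusted p = 0.00839), Cyp2f2 (-0.66, adjusted p = 0.00299) and Hsd17b13 (-0.60, adjusted p = 0.00148), and the urea cycle gene Cps1 was higher (0.73, adjusted p = 0.00646). The 5 calls became 2 with scaling by library totals and 3 without fibrotic replicate 1 or 4 or FLO replicate 2, 5 or 6.

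**Figure D4:**
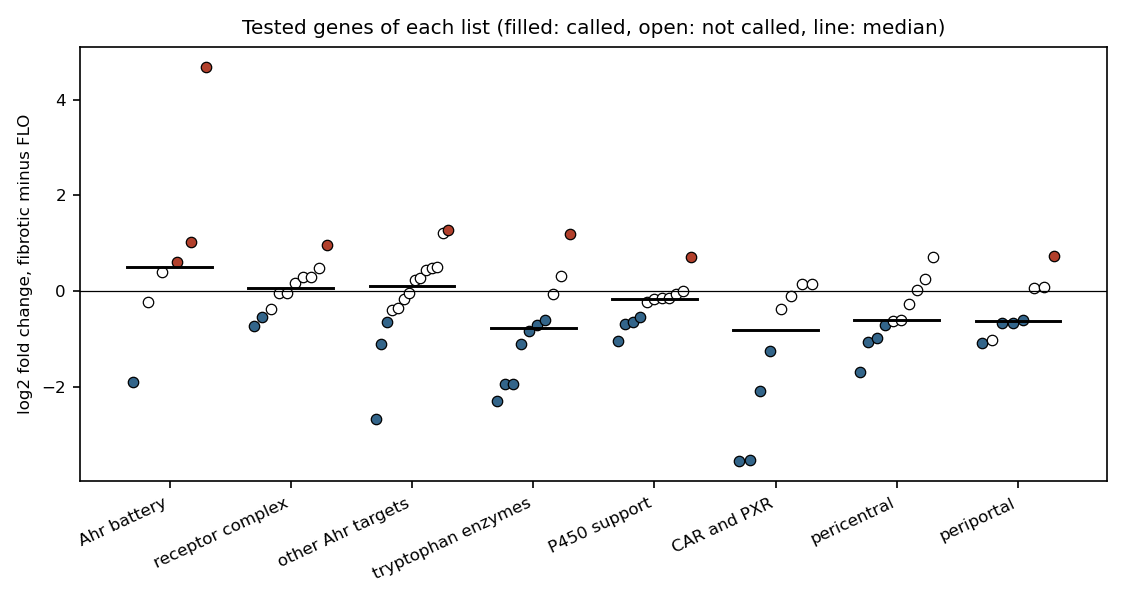
Log2 fold change between fibrotic and FLO livers of the tested genes in the battery and in each of the related gene lists, 1 point per gene, with each list's median. Medians run from 0.50 in the battery to -0.81 in the CAR and PXR list, beside 0.025 over all genes tested. Members of the battery spread from -1.90 to 4.69.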

How the data were processed

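Per the labels, poly(A) RNA of whole mouse liver was sequenced (6 fibrotic, 6 FLO). The authors deposited raw whole-number counts per Ensembl gene, without normalization. The submitters' processing notes name bcl2fastq, STAR 2.7.3a and mm10. The counting annotation and strand setting are not given in the sources used here. Symbols matched 51745 of 56205 identifiers. Positions and transcript lengths came from GENCODE M21 and RefSeq, both GRCm38.

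The test was the robust quasi-likelihood F test of edgeR 4.0.16 (R 4.3.3) on counts, with TMM, filterByExpr and Benjamini-Hochberg adjustment over all 13416 genes tested, called at 0.01 with an absolute log2 fold change over 0.5. CPM are counts scaled to the TMM library size. Genes under the filter were compared as log2 CPM (prior count 2) by an exact two-sided permutation test of 924 assignments (smallest p 0.00216), read against 0.05. Groups came from the titles. Alternatives were DESeq2 1.42.0, limma 3.58.1 (voom), other scalings, filters, prior counts and leaving out each library. Code was tested on simulated counts. Libraries of a group differed by more than sampling noise (chi-square per degree of freedom 10.7 or more). Nothing says whether mice shared litters or batches.

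The members, lists and rule were chosen with earlier results of these data known. The rule allowed naming the members, any called gene of a list and up to 4 uncalled ones of highest level, and the 5 tested genes closest in profile to Cyp1a1 and to Cyp1a2 among those whose mean log2 CPM reached 1.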

Additional observations from a re-analysis of the deposited data

Results flagged for a closer look

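Of 16 checks for a library far from its group (8 genes in 2 groups), 1 was met, where chance gives about 0.8. It was Ahrr in FLO replicate 3, the highest library of its group, whose gap to the next library was the whole range of the group (ratio 1). Where all other libraries of a group are at 0, any count gives this ratio, so the rate given by chance does not hold here. FLO replicate 3 held 5 counts of Ahrr and the other FLO libraries 0. It is also the library with Xist counts, and no link between these values was tested.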

How the results depend on the processing

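The 4 called members kept direction in every alternative and call in every alternative that kept all libraries. DESeq2, voom, other scalings and other filters gave 4 called members, an FDR of 0.05 without a fold limit gave 5, and leaving out 1 library gave 3 to 4. All genes called, fibrotic against FLO, numbered 4012, 3566 to 6994 under alternatives (6994 at an FDR of 0.05 without a fold limit, where Arnt at -0.24 was also called) and 3798 to 4093 without 1 library. Scaled by library totals alone, 71.8% of called genes were higher, against 53.3%, and the median of all genes was 0.20 in place of 0.025. On that scale Kmo (0.10), Por (0.18) and Cyp2b10 (0.050) changed sign. Ahrr missed the threshold without the filter (1.83) and by DESeq2 (2.01). Without 1 library, values ran from 4.52 to 4.86 for Cyp1a1, from -2.08 to -1.78 for Cyp1a2, from 0.93 to 1.10 for Ahr, from 0.20 to 0.56 for Cyp1b1, from 0.47 to 0.68 for Tiparp, from 0.79 to 1.23 for Ahrr and from -0.025 to 0.41 for Aldh3a1, which turned negative without fibrotic replicate 1. Sign also turned without 1 library for Por (-0.10 to 0.060), Cyp2b10 (-0.25 to 0.087), Cyp3a11 (-0.0081 to 0.26), Glul (-0.059 to 0.098) and Gsta1 (-0.39 to 0.0079), none of them called. The cause was not tested. Over 1195 alternative values of 52 single genes outside the battery, 1125 kept direction and side of the threshold, 44 lost and 10 gained the call, and 16 changed sign. Replicate numbers did not pair the libraries, as correlations of same-numbered libraries ran from -0.162 to 0.104 and 0 of them correlated best with their own number. The replicate block gave 3780 calls and the same 4 members, 7 pericentral genes with Cyp2e1, 1 cholangiocyte and 0 stellate markers, and lost the call of Il4i1 (adjusted p = 0.0247). Counts of 0 to 7 limit Ahrr and Aldh3a1.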

Other observations

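The genes whose profile over the 12 libraries came closest to Cyp1a1, by the root mean square difference of centred log2 CPM, were Phlda3 (difference 0.697, log2 fold change 4.33), Hr (0.721, 4.07), Osgin1 (0.735, 4.58), Maoa (0.767, 3.84) and Rtn4rl2 (0.780, 4.25). None of these is a member of the battery or of the lists. Phlda3 is known as a target of p53 and Osgin1 as an oxidative stress gene. Those closest to Cyp1a2 were Spc24 (0.282, -1.66), Amy1 (0.350, -1.67), Adh6-ps1 (0.353, -1.78), Pltp (0.357, -1.89) and Cped1 (0.365, -1.72). The profiles include the difference between groups, so genes picked as closest share the direction of Cyp1a1 or Cyp1a2 by selection. Their calls are therefore no separate result.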
